A study of Mus musculus with 32 samples.

Results

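Female Cyp2c70 knockout (KO) mice treated with SC-435 were compared with untreated female wild-type (WT) mice, to see which liver transcripts of treated knockouts still differed from those of normal liver. The comparison took 8 of the 32 bulk liver RNA-seq libraries, chosen by the labels for sex, genotype and diet: 4 from female KO mice on SC-435 (KO SC-435) and 4 from female WT mice on chow (WT chow). Each library was made from 1 mouse. The other libraries came from female KO mice on chow, female WT mice on SC-435 and males of all 4 combinations, with 4 mice in each group.

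All mice were on the C57BL/6 background and were 12 weeks old at collection. The KO mice, labelled cyp2c70 -/-, descended from a CRISPR-Cas9 founder with a deletion that took out exon 2 of Cyp2c70, so they form 1 line. SC-435, an inhibitor of the ileal bile acid transporter (IBAT), was mixed into the diet at 0.006%, which gave about 11 mg/kg/day. The labels place the switch to this diet at 3 weeks after weaning, whereas the study's methods place it at weaning, so the length of treatment differs between the sources. Mice were not fasted before collection, and livers were perfused. KO SC-435 and WT chow mice differed in genotype and in diet together, so the contributions of genotype and drug cannot be told apart from these 8 mice alone.

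Cyp2c70 is the hepatic cytochrome P450 by which mice turn chenodeoxycholic acid into the hydrophilic muricholic acids, and mice without it carry a more hydrophobic bile acid pool that resembles the human one. IBAT in the terminal ileum returns bile acids to the liver, where they hold down their own synthesis through FXR, SHP (Nr0b2) and the ileal hormone FGF15. When the transporter is blocked, more bile acid leaves in the feces and the liver makes more of it from cholesterol, and cholesterol synthesis is itself controlled by the sterol-sensing factor SREBP2.

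The 8 libraries held 38547236 to 43378055 counts and their TMM normalization factors lay between 0.959 and 1.04. Levels are given as CPM, the counts of each library scaled to a common total after TMM, with the 4 mice of a group listed in the order of their replicate numbers. Mitochondrially encoded transcripts took 3.65 to 4.66% of counts in WT chow mice and 4.80 to 5.49% in KO SC-435 mice, without overlap (exact permutation test, 2-sided, p = 0.0286, the smallest that 4 against 4 can give), and the part of this shift in the results below was not tested. WT chow mice 1 and 2 held counts of adipocyte genes that the other 6 mice all but lacked. Cfd, adipsin, had 593 and 784 counts in them and 1, 1, 0, 0, 0 and 4 in WT chow mice 3 and 4 and the KO SC-435 mice, Plin1 had 131 and 149 against 0 in each of the 6, and Adipoq, adiponectin, 114 and 116 against 0 to 3. WT chow mouse 1 also held pancreatic acinar genes, such as Ctrb1 with 35 counts against 0 to 2. These genes were too low in the other mice to be tested, and a fit without WT chow mice 1 and 2, chosen after seeing these counts, is given after the marker genes. The labels give neither litter nor cage, so p-values measure the spread among these mice.

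Cyp2c70 itself (ENSMUSG00000060613, chromosome 19, 40153353 to 40187333, minus strand, mm10) checked the genotype labels. Its level was 851, 706, 592 and 693 CPM in WT chow mice and 152, 148, 133 and 130.1 CPM in KO SC-435 mice, a log2 difference of -2.33 ± 0.12 (SE; edgeR quasi-likelihood test with Benjamini-Hochberg adjustment, adjusted p = 5.33e-06). Every KO mouse was below every WT mouse. The counts are summed over the whole gene, so reads from exons outside the deletion are included in the KO values.

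Treated knockouts remained distinct from normal liver in a limited set of genes. Of 15881 genes tested, 431 (2.71%) were higher and 193 (1.22%) lower in KO SC-435 mice at an adjusted p under 0.05 and a log2 difference beyond 1, which is the threshold meant wherever a gene is said to have risen or fallen below. Among the 624 called genes (3.93%), 505 were protein-coding. At an adjusted p under 0.05 and any size of difference, 1387 genes (8.73%) were higher and 1159 (7.3%) lower. The median log2 difference over all tested genes was -0.00067, and 80.7% of them lay within 0.5 of no difference. For 3475 genes (21.9%) the 4 KO SC-435 values and the 4 WT chow values did not overlap. These shares over all tested genes are the background for the counts of list members below. The count of higher genes was 340 without KO SC-435 mouse 2 and 500 without WT chow mouse 1, and that of lower genes was 140 and 221 in the same fits.

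**Figure D1:**
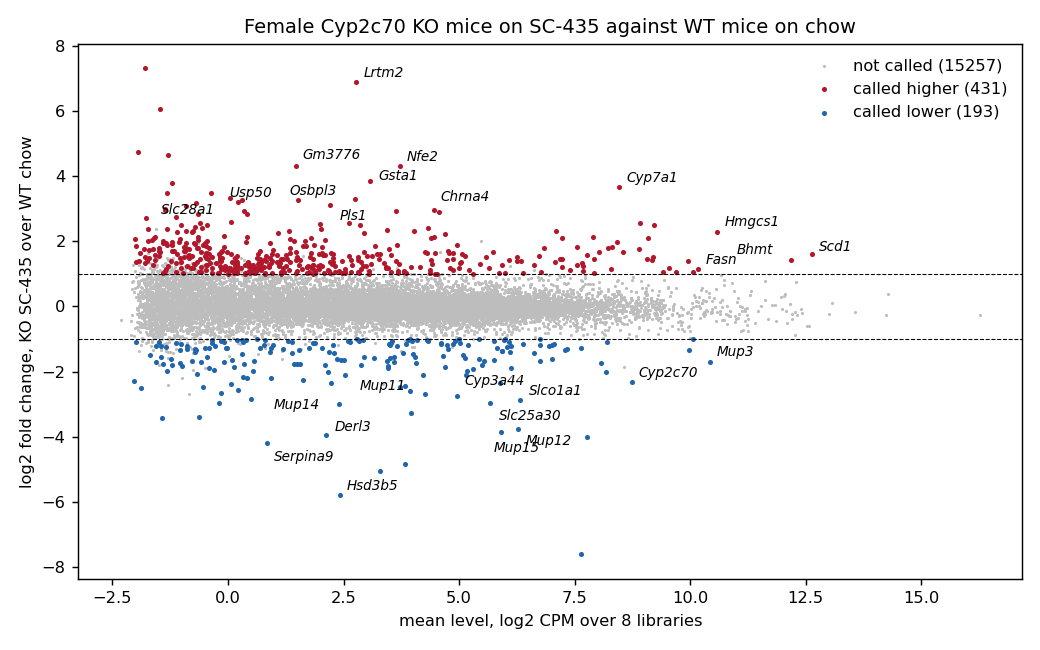
Log2 fold change of KO SC-435 over WT chow in females (vertical axis) against the mean level over the 8 libraries in log2 CPM (horizontal axis), with 1 point for each of the 15881 genes tested. Red points are the 431 genes called higher, blue points the 193 called lower and grey points the rest, and dashed lines mark log2 fold changes of -1 and 1. The labelled genes are Cyp2c70, the 10 largest rises and falls by the naming rule, and the called genes with the most counts. Lrtm2 lies highest among the labelled genes, at 6.90, and Hsd3b5 lowest, at -5.81.

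The largest rises among protein-coding genes that averaged 50 counts or more, and with no overlap between the groups, were those of Lrtm2, Nfe2, Gm3776, Gsta1, Cyp7a1, Osbpl3, Usp50, Pls1, Chrna4 and Slc28a1. Lrtm2 (chromosome 6, 119315133 to 119330766, minus strand), which encodes a leucine-rich repeat membrane protein, stood at 0.0525, 0.0472, 0.0491 and 0.286 CPM in WT chow mice, between 2 and 12 counts, and at 15.6, 13.3, 14.3 and 10.5 CPM in KO SC-435 mice (log2 difference 6.90 ± 0.35, adjusted p = 5.33e-06; 8.01 without WT chow mouse 4). It lies within Cacna2d4, a calcium channel subunit gene on the opposite strand that also rose, by 3.80 ± 0.68 (adjusted p = 0.00429, 120 counts against 8; 4.72 without WT chow mouse 3), and whether counting used strand is not given in the sources used here, so reads of the overlapping genes may not be separated. Nfe2, a bZIP transcription factor known from blood cell precursors, had 0.919, 1.32, 2.11 and 0.621 CPM in WT chow mice and 38, 23.6, 21.5 and 15.9 CPM in KO SC-435 mice (4.32 ± 0.36, adjusted p = 9.98e-05). Osbpl3, an oxysterol-binding protein relative, went from 0.840, 1.23, 1.84 and 0.931 to 11.0, 16.9, 9.68 and 10.5 CPM (3.32 ± 0.26, adjusted p = 9.71e-05). For Lrtm2, Nfe2 and Osbpl3 alike, every KO SC-435 mouse lay above every WT chow mouse, which the rule that named them required.

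Usp50, a member of the ubiquitin-specific protease family, rose from 0.418 to 0.761 CPM to 3.87 to 7.64 CPM (3.26 ± 0.29, adjusted p = 0.000123), while Usp8, which overlaps it on the opposite strand, had a log2 difference of 0.10 (adjusted p = 0.372). Pls1, the actin-bundling protein plastin 1 of microvilli, rose from 0.425 to 1.38 to 6.41 to 9.76 CPM (3.11 ± 0.29, adjusted p = 0.000153). Chrna4, a nicotinic acetylcholine receptor subunit, had 5.64, 3.59, 8.52 and 2.24 CPM in WT chow mice and 30.8, 41.2, 49.8 and 32.1 CPM in KO SC-435 mice (2.96 ± 0.33, adjusted p = 0.000428). Slc28a1, a concentrative nucleoside transporter, was at 0.142 to 0.516 CPM and 1.52 to 2.86 CPM (2.95 ± 0.39, adjusted p = 0.001). Gm3776, Gsta1 and Cyp7a1 are described with their families below.

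**Figure D2:**
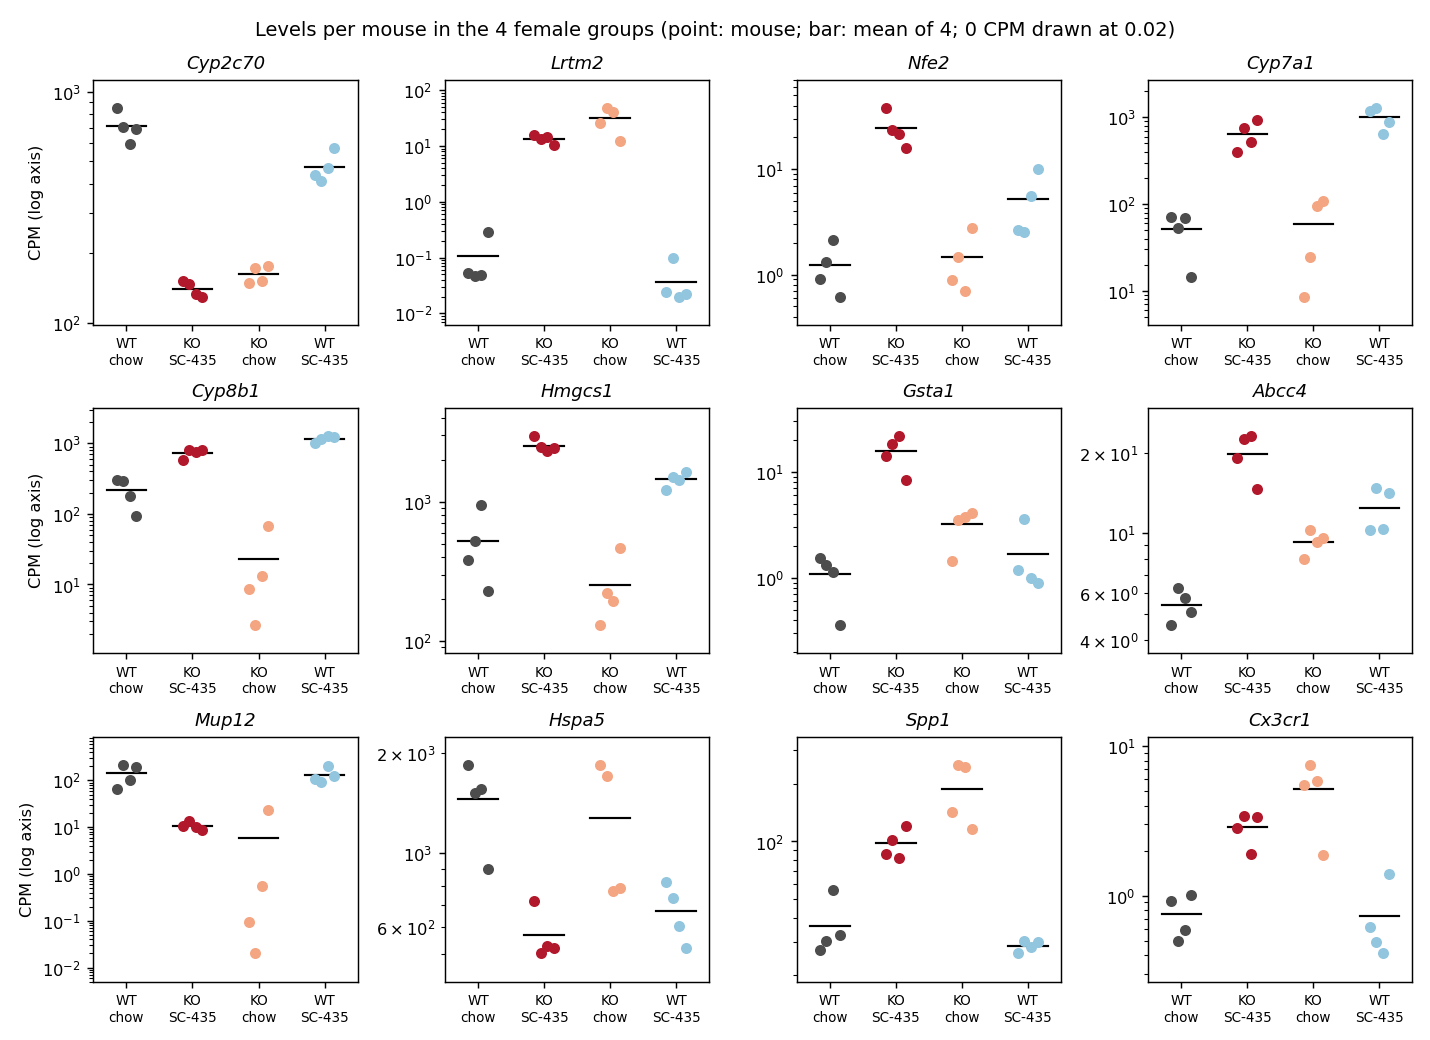
Level of 12 genes in each female mouse, in CPM on a log axis, for the 4 female groups (WT chow, KO SC-435, KO chow and WT SC-435). Points are mice and bars are group means of 4. In all 12 panels the KO SC-435 points lie entirely above or entirely below the WT chow points. The KO chow and WT SC-435 points lie near one of these groups, between them or beyond them, depending on the gene.

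Cholesterol biosynthesis was higher almost throughout. Of 20 listed enzymes, all tested, 17 rose and none fell, where 2.71% and 1.22% of all tested genes did. In all 20 the groups did not overlap, as in 21.9% of all tested genes. The log2 differences ran from 0.52 to 2.56, with medians of 1.52 over the list and -0.00067 over all genes. Summed over the list, the enzymes took 3036 to 6360.4 CPM in WT chow mice and 12012 to 13987 CPM in KO SC-435 mice. With any 1 library left out, 16 to 18 members rose.

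Hmgcs1, the cytosolic HMG-CoA synthase that opens the pathway, had 382, 525, 941 and 230.3 CPM in WT chow mice and 2937, 2473, 2297 and 2409 CPM in KO SC-435 mice (log2 difference 2.30 ± 0.34, adjusted p = 0.00179). Lss, lanosterol synthase, had 70.9, 86.2, 148 and 53.7 CPM and 448, 369, 350.2 and 385 CPM (2.13 ± 0.26, adjusted p = 0.000626). In both of them the lowest KO SC-435 mouse was above the highest WT chow mouse, and the WT chow mice varied more among themselves, relative to their mean, than the KO SC-435 mice. Msmo1, a methylsterol monooxygenase of the later steps, had 185, 199, 316 and 119 CPM and 928, 917, 734 and 919 CPM (2.11 ± 0.24, adjusted p = 0.000428). Acat2, the cytosolic acetoacetyl-CoA thiolase, rose by 1.46 ± 0.17 (adjusted p = 0.000437) and Hsd17b7, a sterol ketoreductase, by 1.28 ± 0.27 (adjusted p = 0.00913). Sc5d, the sterol C5-desaturase, rose by 1.08 ± 0.12 (adjusted p = 0.000382) and was at 0.99, short of the fold threshold, without WT chow mouse 4. Antisense genes that overlap Hmgcs1 (Gm48342, 2.18) and Lss (4930483K19Rik, 2.05) were also higher, and their reads may not be separated from those of the enzymes.

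Sterol control genes moved less. Of 17 tested genes for sterol sensing, uptake and efflux, 1 rose and none fell (median -0.011). Insig1, the sterol-regulated retention protein of the SREBP pathway, had 559.6, 677, 570.3 and 331 CPM in WT chow mice and 1318, 1134, 1139 and 839.5 CPM in KO SC-435 mice (1.06 ± 0.20, adjusted p = 0.00569). It lost the fold threshold without WT chow mouse 4 (0.89) and without KO SC-435 mouse 1 (0.97). Without WT chow mouse 3 the list had 2 higher members.

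The promoter of Hmgcs1 is shown because it was the only promoter of the cholesterol list available here that held the sterol regulatory element TCACNCCAC, the letters bound by SREBP. RefSeq promoter windows (GRCm38.p6, 250 bases before to 50 bases after the start site) were found for 15 of the 20 enzymes, and for 11201 of the 15881 tested genes. On either strand the element stood in 1 of the 15 windows (6.67%) and in 1.5% of the windows of tested genes, beside 1 of 17 windows (5.88%) for fatty acid and triglyceride synthesis and 2 of 20 (10%) for glutathione S-transferases. The NF-Y box CCAAT stood in 14 of 15 (93.3%) against 42.5%. The window below, chr13:119690101-119690400 on the plus strand, is given 5′ to 3′ with the element in capitals, which starts 137 bases before the start site. It also holds 4 CCAAT matches over both strands.
Hmgcs1: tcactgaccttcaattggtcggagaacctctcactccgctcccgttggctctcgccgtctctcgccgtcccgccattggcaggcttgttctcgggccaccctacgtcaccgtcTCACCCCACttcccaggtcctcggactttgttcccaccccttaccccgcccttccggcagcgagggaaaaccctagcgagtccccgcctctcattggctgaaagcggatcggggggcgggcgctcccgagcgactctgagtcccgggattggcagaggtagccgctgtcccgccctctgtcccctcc
These are letter matches only, and nothing about binding was measured.

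Bile acid synthesis was higher at its rate-limiting and 12-hydroxylation steps and not across the list. Of 16 tested genes for bile acid synthesis and conjugation, 2 rose and none fell (median -0.062). Cyp7a1, the rate-limiting cholesterol 7-hydroxylase, had 71.0, 52.4, 68.8 and 14.3 CPM in WT chow mice and 398, 755, 517 and 924 CPM in KO SC-435 mice (3.66 ± 0.45, adjusted p = 0.00071). Cyp8b1, the sterol 12-hydroxylase that directs synthesis to cholic acid, had 298, 289, 182 and 93.4 CPM and 591, 807, 751 and 798 CPM (1.78 ± 0.30, adjusted p = 0.00315). For both genes WT chow mouse 4 was the lowest of the WT chow mice. No KO SC-435 mouse came down to the WT chow range, which the rule for the largest rises required of Cyp7a1. Cyp8b1 missed the threshold in a fit of all 4 female groups together.

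Among 8 tested bile acid receptors and feedback genes, 1 fell and none rose (median -0.25). Nr0b2, which encodes the FXR target SHP, had 61.7, 50.5, 81.3 and 68.4 CPM in WT chow mice and 33, 9.94, 13.9 and 28.7 CPM in KO SC-435 mice (-1.603 ± 0.32, adjusted p = 0.00789), without overlap. Of 16 transporters of bile acids and organic anions, 1 rose and 1 fell (median -0.038). Abcc4, an efflux pump of the basolateral membrane, rose from 4.54, 6.26, 5.75 and 5.06 CPM to 19.2, 22.4, 23.0 and 14.7 CPM (1.88 ± 0.16, adjusted p = 9.98e-05). Slco1a1, an organic anion uptake carrier that is higher in male liver, went from 184, 267, 60.6 and 50.04 CPM to 12.8, 5.98, 9.14 and 47.6 CPM (-2.88 ± 0.70, adjusted p = 0.0186). The call of Slco1a1 was lost without KO SC-435 mouse 1, 2 or 3 (adjusted p = 0.0541, 0.0547 and 0.0597) and its value was -3.90 without KO SC-435 mouse 4, the highest of its group. The main uptake carrier NTCP (Slc10a1) was at 539 to 789.6 CPM and 683 to 738 CPM (0.19, adjusted p = 0.277), and the canalicular bile salt export pump (Abcb11) at 828 to 991 and 731 to 802 CPM (-0.21, adjusted p = 0.116).

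Conjugating enzymes were higher in part of their families. Of 16 tested sulfotransferases 3 rose, all in the bile acid and steroid Sult2a family (list median 0.52). Sult2a2 had 24.4, 15.1, 59.6 and 86.0 CPM in WT chow mice and 219, 281, 278 and 132 CPM in KO SC-435 mice (2.31 ± 0.47, adjusted p = 0.00821). Sult2a5 was at 7.01, 1.32, 14.5 and 8.83 and 36.1, 56.9, 23.3 and 18.7 CPM (2.10 ± 0.54, adjusted p = 0.0225; 0.0767 without KO SC-435 mouse 2), and Sult2a7 at 8.06 to 26.4 and 30.7 to 51.7 CPM (1.12 ± 0.29, adjusted p = 0.0245). Sult2a7 was under the fold threshold without WT chow mouse 2 (0.87) and not significant without KO SC-435 mouse 2 or 3 (adjusted p = 0.0814 and 0.064). Sult2a1 ranged over 7.18 to 115 CPM in WT chow mice and 87.9 to 399 CPM in KO SC-435 mice, with overlap (2.14 ± 0.72, adjusted p = 0.0688). The Sult2a genes are near-identical copies, so their separate values are uncertain, and only 1 of them held its call without KO SC-435 mouse 2.

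Of 21 tested glutathione S-transferases 4 rose and none fell (median 0.28). Gsta1 had 1.55, 1.32, 1.13 and 0.358 CPM in WT chow mice and 14.1, 18.2, 21.5 and 8.29 CPM in KO SC-435 mice (3.84 ± 0.38, adjusted p = 0.00022), and its near-identical neighbour Gm3776 had 0.394, 0.331, 0.123 and 0.191 and 3.97, 5.72, 8.34 and 2.52 CPM (4.31 ± 0.44, adjusted p = 0.000248). Reads of Gsta1, Gsta2 and Gm3776 may be split among the copies. Gsta2 was at 18.7 to 31.2 and 49.8 to 96.8 CPM (1.67 ± 0.21, adjusted p = 0.000832), and Gstm3, of the mu class, at 83.3, 57.9, 51.5 and 31.1 and 246, 247, 265 and 207 CPM (2.12 ± 0.24, adjusted p = 0.000428). Gstm4 rose by 1.04 ± 0.13 (adjusted p = 0.00071) but lay at 0.97 or 0.98 without WT chow mouse 2 or 4 or KO SC-435 mouse 2 or 3. The antioxidant response element TGACNNNGC, a letter pattern read by NRF2, stood in 4 of 20 promoter windows of this list (20%) and in 16.7% of those of all tested genes.

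None of 16 NRF2 and oxidative stress genes was called (whatever the size, 5 lay higher and 1 lower with an adjusted p under 0.05, median 0.10). The lowest member was Gclc, at -0.71. Nqo1, the quinone reductase often used to read NRF2 activity, was at 11.0, 10.3, 9.19 and 7.14 CPM in WT chow mice and 19.0, 18.5, 19.7 and 16.3 CPM in KO SC-435 mice (0.97 ± 0.13, adjusted p = 0.0011). Its groups did not overlap, as in 21.9% of all tested genes. Pgd, of the pentose phosphate pathway, was at 37.2 to 50.9 and 71.6 to 84.7 CPM (0.84 ± 0.11, adjusted p = 0.000977). Of 19 tested genes of the glucuronidation list 1 rose, Ugdh, which makes UDP-glucuronic acid, from 138, 121, 97.3 and 80.7 to 329, 355, 302 and 310.0 CPM (1.58 ± 0.15, adjusted p = 0.000181), while none of the transferases themselves was called; without WT chow mouse 3 or 4 the list had 2 higher members. Of 40 tested Cyp1, Cyp2 and Cyp3 enzymes 2 rose and 1 fell (median -0.10). Cyp2a5, the coumarin hydroxylase, went from 649, 425, 451 and 642 to 1238, 1518, 1725 and 1203 CPM (1.40 ± 0.17, adjusted p = 0.000664), and Cyp2c55 from 5.40 to 11.7 to 15.5 to 19.5 CPM (1.09 ± 0.21, adjusted p = 0.00582; 0.93 and 0.99 without WT chow mouse 3 or 4). Cyp3a44, of the closely related Cyp3a family, fell from 94.7, 87.9, 22.3 and 11.6 to 9.60, 10.5, 7.82 and 3.998 CPM (-2.76 ± 0.60, adjusted p = 0.0112).

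Genes of fatty acid synthesis were higher in part. Of 23 tested genes for fatty acid and triglyceride synthesis 8 rose and none fell, with 9 below a log2 difference of 0 (median 0.32). Acss2, the cytosolic acetyl-CoA synthetase, had 208, 151, 235 and 113 CPM in WT chow mice and 859, 1105, 1132 and 932 CPM in KO SC-435 mice (2.52 ± 0.21, adjusted p = 9.98e-05), and an antisense gene over it, Acss2os, was also higher (3.11). Acly, ATP citrate lyase, went from 328, 284, 347 and 266 to 746, 847, 1109 and 768 CPM (1.51 ± 0.14, adjusted p = 0.000153). Fasn, fatty acid synthase, went from 637, 670.5, 876 and 688 to 1532, 1632, 1821 and 1330.4 CPM (1.15 ± 0.13, adjusted p = 0.000399). Scd1, the main hepatic stearoyl-CoA desaturase, was at 3739, 2511, 4303 and 2035 and 6493, 12142, 11599 and 7604 CPM (1.599 ± 0.26, adjusted p = 0.0029), and Scd2 at 8.15 to 11.8 and 19.5 to 24.8 CPM (1.21 ± 0.13, adjusted p = 0.000326). The groups did not overlap for any of these 5 genes.

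Genes of fatty acid oxidation and ketogenesis leaned the other way. Of 25 tested, 4 fell and none rose (median -0.33). At an adjusted p under 0.05 and any size 12 were lower, where 7.3% of all tested genes were. Vnn1, a pantetheinase induced by PPARα, had 44.0, 61.9, 141 and 104 CPM in WT chow mice and 31.7, 41.7, 38.1 and 22.9 CPM in KO SC-435 mice (-1.37 ± 0.32, adjusted p = 0.0144). Cyp4a31, a fatty acid hydroxylase, was at 9.87 to 21.0 and 5.75 to 9.07 CPM (-1.17 ± 0.23, adjusted p = 0.00732; -0.99 without WT chow mouse 3). Cyp4a14, another member, was at 827, 1369, 2342 and 1229 and 603, 909.9, 672 and 650.4 CPM with overlap (-1.01 ± 0.26, adjusted p = 0.0237), was at -0.68 without WT chow mouse 3, its highest value, and lost its adjusted p without KO SC-435 mouse 1, 3 or 4 (0.0666, 0.0673 and 0.0648). Fgf21, the fasting hormone, overlapped too, at 0.472, 2.55, 4.25 and 0.692 and 0.446, 0.300, 0.489 and 0.4997 CPM (-2.18 ± 0.61, adjusted p = 0.0343), and leaving out any mouse other than WT chow mouse 1 or 4 ended its call (adjusted p = 0.0727 to 0.102). The list had 1 lower member without WT chow mouse 3 and 2 without KO SC-435 mouse 1, 3 or 4.

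Of 15 tested lipid droplet genes 3 fell and none rose (median -0.29). Cfd and Cidea of the same list were not tested and had counts almost only in WT chow mice 1 and 2 (85 and 63 for Cidea, 0 to 4 in the others). Without those mice Plin4 and G0s2 still fell (-2.03 and -1.66), Cidec did not (-0.86), and the list median was 0.059. G0s2, an inhibitor of adipose triglyceride lipase, had 86.2, 56.2, 54.6 and 86.1 CPM in WT chow mice and 21.4, 17.97, 22.5 and 26.6 CPM in KO SC-435 mice (-1.67 ± 0.18, adjusted p = 0.000334). Plin4, a droplet coat protein, was at 4.59, 6.45, 10 and 5.54 and 1.69, 1.41, 1.49 and 2.93 CPM (-1.81 ± 0.29, adjusted p = 0.0025), and Cidec, a droplet fusion protein, at 3.10 to 6.76 and 1.98 to 2.78 CPM (-1.12 ± 0.23, adjusted p = 0.00785; -0.92 without WT chow mouse 2). Of 19 apolipoprotein and lipoprotein genes 1 rose and 1 fell, and 8 were lower at an adjusted p under 0.05 and any size (median -0.36). Pltp, the phospholipid transfer protein, was at 25.8 to 57.7 and 61.8 to 89.5 CPM (1.05 ± 0.22, adjusted p = 0.01) and between 0.90 and 0.98 without WT chow mouse 2 or 4 or KO SC-435 mouse 2 or 3. Angptl4, an inhibitor of lipoprotein lipase, overlapped at 129, 202, 259 and 104 and 41.4, 64.3, 112 and 79.0 CPM (-1.21 ± 0.32, adjusted p = 0.026), and its call was lost without WT chow mouse 2 or 3 or KO SC-435 mouse 1, 2 or 4 (adjusted p = 0.0563 to 0.0827).

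Of 16 tested genes for glucose and glycogen metabolism 3 fell and none rose (median 0.064). Ppp1r3b, a glycogen-targeting subunit of protein phosphatase 1, went from 397, 359, 452 and 391 CPM to 202, 159, 157 and 225 CPM (-1.10 ± 0.13, adjusted p = 0.000529). Pfkfb3, a regulator of glycolysis, was at 8.08 to 22.9 and 5.37 to 7.90 CPM (-1.20 ± 0.26, adjusted p = 0.012; -0.97 without WT chow mouse 3). Among the called genes with the most counts was also Bhmt, betaine-homocysteine methyltransferase of one-carbon metabolism, which rose from 3088, 1922, 3491 and 1536 to 6298, 7777, 6734 and 6156 CPM (1.44 ± 0.23, adjusted p = 0.00251).

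**Figure D3:**
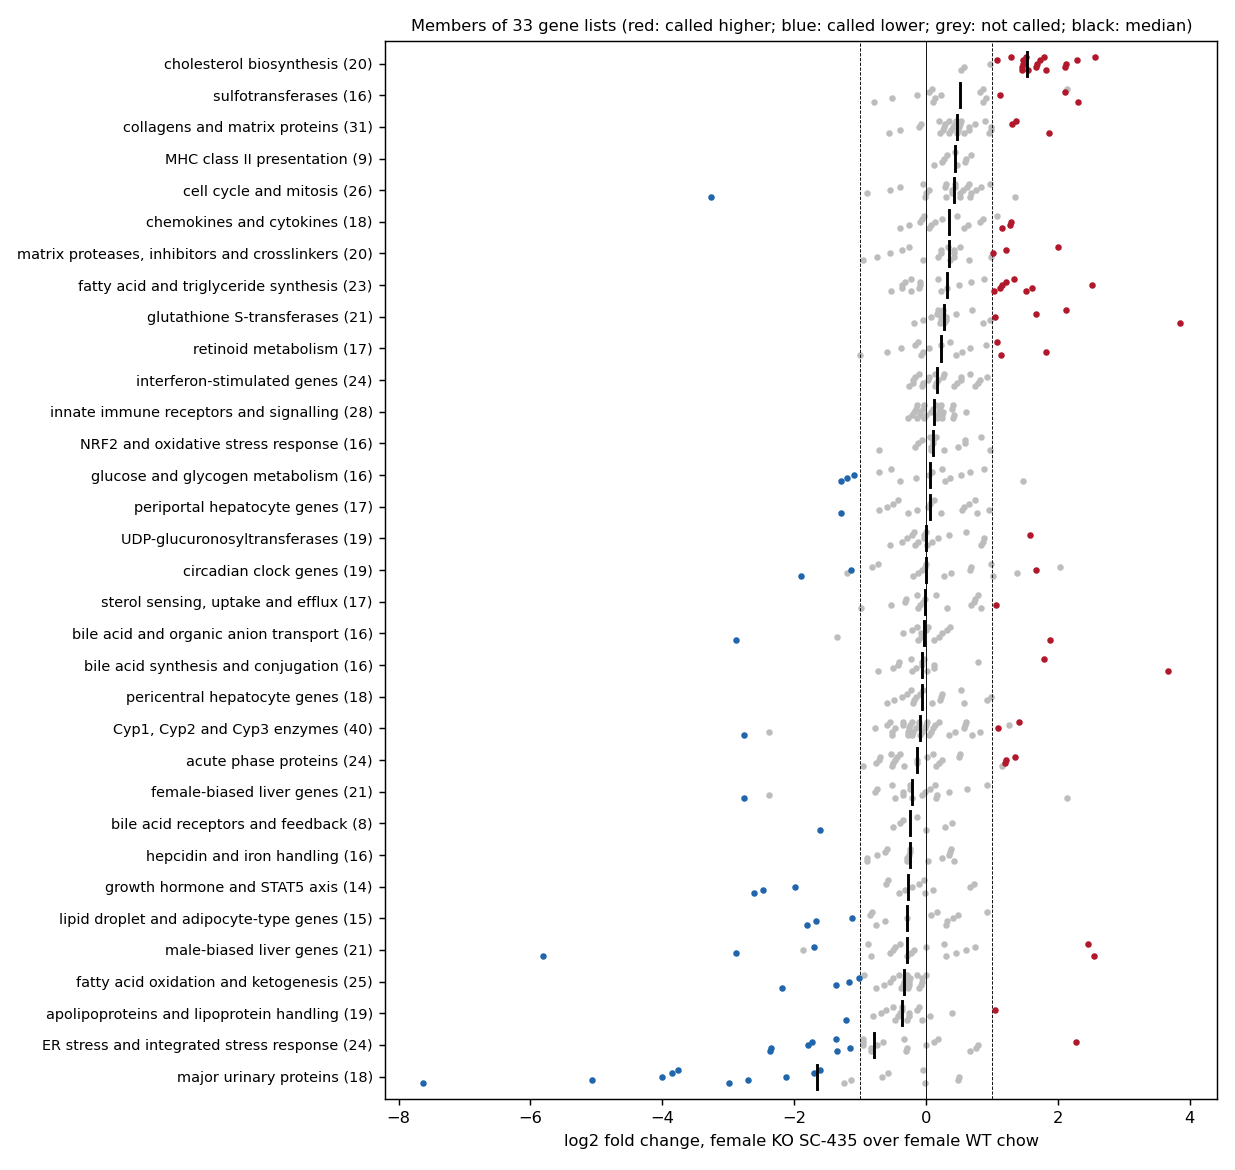
Log2 fold change of KO SC-435 over WT chow in females (horizontal axis) for the tested members of each pathway, injury and liver program list (vertical axis, number tested in brackets, ordered by median). Each point is a gene, red where called higher, blue where called lower and grey otherwise, and a black bar marks the list's median. Cholesterol biosynthesis has the highest median, 1.52, and the major urinary proteins the lowest, -1.65.

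Genes of inflammation and immunity were read against a background of 3.93% of all tested genes called, at which lists of this size hold a call or none. Of 28 tested innate immune receptors and signalling genes none was called, none reached an adjusted p under 0.05, and none was without overlap (median 0.13). Fcgr2b, an inhibitory Fc receptor, was at 60.3 to 75.2 and 51.5 to 64.7 CPM (-0.21, adjusted p = 0.167), and Lilrb4a, an inhibitory receptor of myeloid cells, at 3.02 to 4.004 and 3.33 to 6.27 CPM (0.41, adjusted p = 0.2). Of 9 tested MHC class II genes none was called or reached an adjusted p under 0.05 (median 0.44). H2-Eb1 had 36.6, 19.8, 25.2 and 21.4 CPM in WT chow mice and 27.5, 39.2, 32.1 and 65.3 CPM in KO SC-435 mice (0.68, adjusted p = 0.104), and H2-Aa had 20.2 to 36.5 and 28.7 to 63.4 CPM (0.61, adjusted p = 0.119). For both genes KO SC-435 mouse 4 was the highest of the 8 mice and the groups overlapped.

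Of 24 interferon-stimulated genes none was called, with 7 higher at an adjusted p under 0.05 and any size (median 0.16). Usp18, a deISGylase that dampens interferon signalling, had 10.3, 8.88, 10.3 and 10.4 CPM in WT chow mice and 15.5, 19.8, 18.4 and 21.3 CPM in KO SC-435 mice (0.92 ± 0.11, adjusted p = 0.000612), and Oasl1 had 10.2 to 13.1 and 18.9 to 21.8 CPM (0.82 ± 0.10, adjusted p = 0.00063). The groups did not overlap for either gene, though both stayed under the fold threshold.

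Of 18 tested chemokines and cytokines 3 rose, where 2.71% of all tested genes did, and none fell (median 0.35). Il1b, the inflammasome cytokine, had 1.39, 1.75, 1.01 and 0.788 CPM in WT chow mice and 4.13, 2.21, 3.19 and 2.27 CPM in KO SC-435 mice (1.27 ± 0.29, adjusted p = 0.0131). Cx3cl1, the membrane-bound ligand of Cx3cr1, was at 0.604 to 1.19 and 1.88 to 2.54 CPM (1.15 ± 0.23, adjusted p = 0.00728; 0.99 without WT chow mouse 1), and Tgfb2 at 0.236 to 0.860 and 1.34 to 1.70 CPM (1.28 ± 0.33, adjusted p = 0.023; 0.0514 to 0.0674 without KO SC-435 mouse 2, 3 or 4). The chemokines Ccl2, Cxcl1 and Cxcl10, which the study names, overlapped between the groups and were not called. Ccl2 was at 1.26, 0.591, 0.639 and 0.549 and 0.681, 0.646, 0.566 and 0.613 CPM (-0.26, adjusted p = 0.61), Cxcl1 had a log2 difference of 0.46 (adjusted p = 0.275), Cxcl10 of -0.038 (adjusted p = 0.95) and Tgfb1, the fibrogenic cytokine, of -0.059 (adjusted p = 0.731). Cxcl2 was too low to test, with 1 to 5 counts in WT chow mice and 2 to 10 in KO SC-435 mice.

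Acute phase genes were split. Of 24 tested, 3 rose and none fell at the fold threshold, while 10 were lower at an adjusted p under 0.05 and any size (median -0.14). Orm2, an orosomucoid, had 24.6, 19.1, 16.3 and 13.8 CPM in WT chow mice and 44.5, 37.1, 49.8 and 55.9 CPM in KO SC-435 mice (1.35 ± 0.18, adjusted p = 0.00091), and its close relative Orm3 had 8.29, 3.66, 8.16 and 6.85 and 16.8, 17.9, 17.2 and 9.36 CPM (1.19 ± 0.26, adjusted p = 0.0111; 0.99 without WT chow mouse 2), with reads that may be shared. Mt1, the metal-binding metallothionein 1, went from 129.7, 65.7, 135 and 30.1 to 209, 210.1, 230.1 and 181 CPM (1.21 ± 0.36, adjusted p = 0.0434). The call of Mt1 held only with all 8 mice or without WT chow mouse 1 or 3; without WT chow mouse 4 the difference was 0.92 and without any of the rest the adjusted p was 0.0696 to 0.109. Without WT chow mouse 2 the list had 1 higher member.

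Matrix genes showed a broad shift of small size. Of 31 tested collagens and matrix proteins 3 rose and none fell, with a median of 0.47 against -0.00067 over all genes. At an adjusted p under 0.05 and any size 16 were higher, where 8.73% of all tested genes were. Col1a1, the chain of fibrillar collagen I, had 19.8, 11.8, 13.1 and 10.03 CPM in WT chow mice and 24.2, 22.8, 22.4 and 31.7 CPM in KO SC-435 mice (0.89 ± 0.19, adjusted p = 0.0111), without overlap and under the fold threshold. Col4a3, a basement membrane collagen, went from 0.997, 1.25, 2.19 and 1.03 to 5.49, 5.49, 5.20 and 3.57 CPM (1.86 ± 0.26, adjusted p = 0.00118), and Col4a4, its partner chain, from 0.638 to 1.11 to 1.57 to 2.63 CPM (1.37 ± 0.24, adjusted p = 0.00423). In both genes KO SC-435 mouse 4 was the lowest of its group. The list had 5 higher members without WT chow mouse 1 or KO SC-435 mouse 2 or 3, and 6 without WT chow mouse 3.

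Of 20 tested matrix proteases, inhibitors and crosslinkers 3 rose and none fell (median 0.34). Plat, tissue plasminogen activator, was at 0.551, 0.496, 0.467 and 0.668 CPM in WT chow mice and 1.502, 0.831, 1.31 and 1.41 CPM in KO SC-435 mice (1.22 ± 0.26, adjusted p = 0.0105). Mmp13, a collagenase, was at 0.0525 to 0.165 and 0.282 to 0.727 CPM (2.0 ± 0.44, adjusted p = 0.0112). Mmp12, the macrophage elastase, rose by 1.02 ± 0.30 (adjusted p = 0.0436), a call that ended with any 1 mouse left out except WT chow mouse 1 (0.87 to 1.14, adjusted p = 0.05 to 0.12). Timp1, a metalloproteinase inhibitor, was too low to test, with 1 to 7 counts in WT chow mice and 3 to 16 in KO SC-435 mice, against 37 to 144 in the 4 KO mice on chow.

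Marker genes were read to see which cells stood behind the tissue RNA. In bulk liver, fewer cells of a type and less RNA per cell cannot be told apart. Hepatocyte markers were present at high levels in every mouse and none of 10 was called. Fgb, fibrinogen beta, was at 3835 to 4846 and 2922 to 3516 CPM (-0.44, adjusted p = 0.014), and Cps1, of the urea cycle, at 3552 to 4132 and 5046 to 6906 CPM (0.74, adjusted p = 0.00204).

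Cholangiocyte markers were higher in part. Of 14 tested, 4 rose and none fell, with a median of 0.81, and the summed level of the list was 75.8 to 117 CPM in WT chow mice and 149 to 204 CPM in KO SC-435 mice. Spp1, osteopontin, had 27.0, 30.1, 55.6 and 32.5 CPM in WT chow mice and 86.3, 102, 82.3 and 120.1 CPM in KO SC-435 mice (1.44 ± 0.21, adjusted p = 0.00174). Epcam, the epithelial adhesion molecule of bile ducts and progenitor cells, had 1.29, 1.77, 3.64 and 1.65 and 4.46, 5.42, 4.30 and 5.72 CPM (1.27 ± 0.28, adjusted p = 0.0116). Tspan8, a tetraspanin, was at 0.764 to 1.28 and 1.78 to 3.20 CPM (1.48 ± 0.24, adjusted p = 0.00291), and the mucin Muc1 at 0.661 to 1.40 and 1.78 to 3.59 CPM (1.41 ± 0.28, adjusted p = 0.00774). The duct keratin Krt19 was at 2.07, 1.98, 2.19 and 1.19 and 3.54, 2.51, 2.73 and 3.09 CPM, without overlap and under the fold threshold (0.69 ± 0.21, adjusted p = 0.0469). With any 1 library left out 4 to 6 of the markers rose. The part of these duct markers in the matrix and chemokine results was not tested. Within the KO SC-435 group, mouse 4 had the highest Spp1, Epcam and Col1a1 and the lowest Col4a3 and Col4a4, while Krt19 was highest in mouse 1. These orders were not tested.

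Of 13 tested monocyte and recruited macrophage markers 2 rose and none fell (median 0.28): Mmp12, given above, and Cx3cr1, the fractalkine receptor. Cx3cr1 had 0.919, 0.496, 0.590 and 1.003 CPM in WT chow mice and 2.84, 3.44, 1.90 and 3.38 CPM in KO SC-435 mice (1.95 ± 0.28, adjusted p = 0.00135). Adgre1, a pan-macrophage surface receptor, overlapped at 20.6, 20.9, 21.1 and 21.2 and 17.7, 18.1, 23.8 and 32.9 CPM (0.15, adjusted p = 0.586). The list summed to 209.9 to 253 CPM in WT chow mice and 239 to 353 CPM in KO SC-435 mice. None of 9 Kupffer cell markers was called, with Slc40a1 at -0.59 (adjusted p = 0.0143) and the scavenger receptor Cd163 at -0.85 (adjusted p = 0.027).

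The remaining marker lists had no called member apart from the adipocyte list, where 1 of 3 tested markers fell (Cidec, given above) and Cfd, Plin1, Adipoq and Retn, not tested, had their counts in WT chow mice 1 and 2. The lists without a call were neutrophil markers (3 of 13 testable, among them S100a9 at -0.67, adjusted p = 0.319, and Mmp9 at -0.37, adjusted p = 0.418), with Ly6g and Cxcr2 at or near 0 in both groups. Of 11 T and NK cell markers, Cd4 lay at 0.90 (adjusted p = 0.0863) and Cd3e at 0.68 (adjusted p = 0.234). Of 10 B and plasma cell markers, Ighm lay at 0.79 (adjusted p = 0.0229) and Cd79a at -0.72 (adjusted p = 0.305). Stellate cell and myofibroblast markers included Pdgfrb at 13.05, 10.2, 11.4 and 14.7 and 22.1, 19.4, 18.2 and 22.7 CPM, without overlap (0.75 ± 0.12, adjusted p = 0.0029), Ecm1 at -0.28 (adjusted p = 0.116), and Acta2, smooth muscle actin, at 1.70 to 9.69 and 2.95 to 4.38 CPM (-0.50, adjusted p = 0.501). Of 10 sinusoidal endothelial markers, Clec4g lay at -0.27 (adjusted p = 0.0574) and Gpr182 at -0.24 (adjusted p = 0.109). The alpha globins Hba-a1 and Hba-a2, whose reads may be shared, varied among WT chow mice (Hba-a1 at 34.7, 32.8, 7.17 and 2.05 CPM) more than between groups (-1.37 and -1.46, adjusted p = 0.22 and 0.23), and the acinar gene Cela2a was at most at 1.44 CPM in any mouse. Epb42 of the erythroid list, Try5, Amy2a5 and Cel of the acinar list and Lep of the adipocyte list were at or near 0 in both groups. Other acinar genes had counts in WT chow mouse 1, with 35 for Ctrb1, 21 for Pnlip, 14 for Cpb1 and 12 for Try4, against at most 2 in any other mouse.

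Leaving out WT chow mice 1 and 2, with 2 controls then left, gave 432 higher and 206 lower genes, of which 297 and 132 were among the 431 and 193. Of the 101 called genes of the naming rule, 81 kept their call, 20 lost it and none changed sign. Cholesterol biosynthesis had 17 higher members as before (median 1.52), the ER stress list 7 lower (-0.54) and the major urinary proteins 9 lower (-1.37). The cholangiocyte list had 2 higher members in place of 4 (median 0.72), with Epcam at 0.92 (adjusted p = 0.0621) and Muc1 at 1.16 (0.0524). The matrix protease list had 1 in place of 3, with Plat at 1.16 (0.0559), Mmp13 at 1.82 (0.0553) and Mmp12 at 1.03 (0.129), and the apolipoprotein list had no call. Slco1a1 (-1.54, 0.146), Cyp3a44 (-1.08, 0.0639), Bhlha15 (-1.91, 0.084), Nfil3 (-0.24, 0.313) and Cx3cl1 (0.92, under the fold threshold) were no longer called. In the other direction Col1a1 (1.13, 0.00368), Nqo1 (1.18, 0.000874), Rhbg (1.18, 0.00174), Hamp (-1.003, 0.0122), Cd163 (-1.05, 0.0248) and Cd4 (1.43, 0.0403) passed the threshold, and 6 cell cycle genes were higher where none had been.

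Chaperones and other genes of the endoplasmic reticulum (ER) stress response were lower in treated knockouts than in normal liver. Of 24 tested 7 fell and 1 rose (median -0.79). At an adjusted p under 0.05 and any size 14 were lower, where 7.3% of all tested genes were. With any 1 library left out 7 to 10 fell. Hspa5, the ER chaperone BiP, had 1841, 1519, 1557 and 896 CPM in WT chow mice and 719.8, 501, 527 and 521 CPM in KO SC-435 mice (-1.35 ± 0.20, adjusted p = 0.00181). Hyou1, an ER HSP70 relative, had 466, 463, 473 and 249 and 166, 101, 117 and 113 CPM (-1.72 ± 0.21, adjusted p = 0.00071), and Creld2, an ER-resident foldase, 158, 97.3, 101 and 37.6 and 23.7, 17.0, 16.8 and 18.4 CPM (-2.37 ± 0.34, adjusted p = 0.00142). In each of them WT chow mouse 4 was the lowest of the WT chow mice and still above all KO SC-435 mice. Hsph1, a cytosolic HSP110 chaperone, was at 68.8 to 99.6 and 30.8 to 35.5 CPM (-1.36 ± 0.11, adjusted p = 9.98e-05). The member that rose, named after its values were seen, was Asns, asparagine synthetase, at 0.997, 1.09, 0.368 and 0.382 and 2.16, 3.55, 3.22 and 4.70 CPM (2.27 ± 0.37, adjusted p = 0.00282). Without WT chow mouse 4 the list had 2 higher members.

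Derl3, an ER-associated degradation factor outside that list, was among the 10 largest falls and went from 16.8, 8.88, 5.01 and 1.79 to 0.634, 0.300, 0.232 and 0.886 CPM (-3.95 ± 0.65, adjusted p = 0.0029; -3.32 without WT chow mouse 1). Bhlha15, a secretory cell transcription factor also known as MIST1, went from 2.62, 1.58, 0.958 and 0.836 to 0.305, 0.0692, 0.0515 and 0.4997 CPM (-2.65 ± 0.59, adjusted p = 0.0124; -3.35 without KO SC-435 mouse 4). Of 26 cell cycle genes 1 fell and none rose (median 0.42), and it was Cdkn1a, the p21 inhibitor of cyclin-dependent kinases, with 12.1, 40.2, 56.9 and 3.17 CPM in WT chow mice and 3.85, 2.35, 2.73 and 2.68 CPM in KO SC-435 mice (-3.26 ± 0.69, adjusted p = 0.00986; -2.66 without WT chow mouse 3). The WT chow mice spanned a wide range for Cdkn1a and the lowest of them lay within the KO SC-435 range.

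The major urinary proteins, lipocalins secreted by the liver under growth hormone control, were the list with the most falls. Of 18 tested 10 fell and none rose (median -1.65). Mup12 had 66.5, 214, 104 and 193 CPM in WT chow mice and 10.4, 13.4, 9.93 and 8.65 CPM in KO SC-435 mice (-3.76 ± 0.34, adjusted p = 0.000145). Mup3, the member with the most counts, had 2554, 2562, 1360.4 and 1917 and 577, 499, 683 and 803 CPM (-1.70 ± 0.21, adjusted p = 0.00071), and Mup15 37.4, 167, 72.5 and 172 and 1.57, 6.55, 19.7 and 3.20 CPM (-3.85 ± 0.73, adjusted p = 0.00562; -4.89 without KO SC-435 mouse 3). No KO SC-435 mouse reached the WT chow range in these, which the rule for the largest falls required of Mup12 and Mup15. Mup11 was at 12.97 to 56.3 and 3.04 to 7.97 CPM (-2.69 ± 0.41, adjusted p = 0.00202) and Mup14 at 2.23 to 27.1 and 0.772 to 1.66 CPM (-2.99 ± 0.74, adjusted p = 0.0197; -1.52 without WT chow mouse 2, and adjusted p = 0.0537 to 0.0632 without KO SC-435 mouse 1, 2 or 3).

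Mup10 and Mup7 show how far 1 mouse weighed on this family. Mup10 was at 4.44, 1563, 1.52 and 5.49 CPM in WT chow mice and 2.79, 1.31, 1.88 and 1.93 CPM in KO SC-435 mice (-7.63 ± 2.12, adjusted p = 0.0325), and without WT chow mouse 2 its difference was -0.94 (adjusted p = 0.151). Mup7 was at 3.99, 68.8, 1.03 and 1.77 and 0.329, 0.185, 1.13 and 0.636 CPM (-5.06 ± 1.35, adjusted p = 0.0275), and without the same mouse at -1.98 (adjusted p = 0.0525). Leaving out any KO SC-435 mouse also ended both calls (adjusted p = 0.0761 to 0.0981 for Mup10 and 0.0606 to 0.0865 for Mup7). The list had 6 lower members without WT chow mouse 2 or KO SC-435 mouse 2 and 5 without KO SC-435 mouse 1 or 3. The Mup genes are near-identical copies, so values of single members are uncertain.

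Other sex-dependent genes were mixed. Of 21 tested male-biased liver genes 3 fell and 2 rose (median -0.29). Hsd3b5, a male-biased 3-ketosteroid reductase, was the largest fall by the naming rule, from 9.95, 29.2, 1.03 and 1.55 CPM to 0.235, 0.0692, 0.0515 and 0.363 CPM (-5.81 ± 1.15, adjusted p = 0.00729; -4.48 without WT chow mouse 2 and -6.40 without KO SC-435 mouse 4). Cyp4a12a rose from 0.656, 2.60, 0.884 and 0.430 to 10.5, 2.03, 4.71 and 9.43 CPM with overlap (2.54 ± 0.58, adjusted p = 0.0143; 3.35 without WT chow mouse 2) and its near-identical copy Cyp4a12b rose by 2.45 ± 0.57 (adjusted p = 0.015; 3.10 without the same mouse). Without KO SC-435 mouse 4 the list had 5 lower members. Of 21 female-biased genes 1 fell, Cyp3a44, and none rose (median -0.21); 2 rose without WT chow mouse 3 and 2 fell without WT chow mouse 4. Serpina9, a serine protease inhibitor, went from 1.94, 6.61, 3.41 and 1.27 to 0.422, 0.0231, 0.0772 and 0.182 CPM (-4.19 ± 0.67, adjusted p = 0.00263; -3.61 without WT chow mouse 2 and -5.07 without KO SC-435 mouse 1). Slc25a30, a mitochondrial carrier, went from 25.9, 79.0, 160.1 and 95.3 to 12.1, 11.0, 11.2 and 11.0 CPM (-2.98 ± 0.41, adjusted p = 0.00122), with the KO SC-435 mice close to one another.

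Of 14 tested genes of the growth hormone and STAT5 axis 3 fell and none rose (median -0.27). Cish, a STAT5-induced feedback inhibitor, had 10.8, 21.3, 18.6 and 39.2 CPM in WT chow mice and 3.00, 5.91, 4.84 and 2.27 CPM in KO SC-435 mice (-2.48 ± 0.39, adjusted p = 0.00235). Onecut1, the transcription factor HNF6, had 6.46, 17.0, 43.3 and 38.6 and 4.51, 3.30, 4.53 and 4.82 CPM (-2.61 ± 0.47, adjusted p = 0.00478). Socs2, another feedback inhibitor, had 15.98, 106, 84.3 and 25.0 and 15.7, 13.8, 12.1 and 16.04 CPM with overlap (-1.99 ± 0.49, adjusted p = 0.0196), and lost its call without WT chow mouse 2 (0.053) or KO SC-435 mouse 2 or 3 (0.0628 and 0.062).

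Zonation, clock, iron and retinoid genes held scattered changes. None of 18 pericentral genes was called (median -0.065), with the ethanol-inducible Cyp2e1 at 6932, 6436, 7762 and 8301 and 4903, 4748, 5013 and 4791 CPM, without overlap (-0.59 ± 0.10, adjusted p = 0.00296), and the ammonium transporter Rhbg at 0.93 ± 0.16 (adjusted p = 0.00365). Of 17 periportal genes 1 fell, Hsd17b6, a steroid dehydrogenase, from 182, 186, 334 and 431 to 128, 88.9, 112 and 132 CPM (-1.28 ± 0.26, adjusted p = 0.00794). At an adjusted p under 0.05 and any size 5 periportal genes were higher and 5 lower, where 8.73% and 7.3% of all tested genes were. Without WT chow mouse 1, 2 members each of the pericentral and periportal lists rose. None of 16 hepcidin and iron genes was called (median -0.25), with hepcidin (Hamp) at 632, 465, 549 and 717 and 351, 392, 219.8 and 295 CPM (-0.90 ± 0.18, adjusted p = 0.00738) and Smad7, an inhibitor of BMP and TGF-beta signalling, at 22.2 to 36.4 and 14.7 to 17.3 CPM (-0.74 ± 0.15, adjusted p = 0.00939). Of 17 retinoid genes 3 rose and none fell (median 0.22). Rdh11, a retinol dehydrogenase, went from 85.9, 82.8, 109 and 51.9 to 309, 289.9, 288 and 269 CPM (1.82 ± 0.18, adjusted p = 0.000209) and Aldh1a7, an aldehyde dehydrogenase, from 154 to 228 to 393 to 459 CPM (1.14 ± 0.12, adjusted p = 0.000326). Dhrs9, a retinol and steroid dehydrogenase, went from 2.02 to 6.73 to 8.21 to 10.3 CPM (1.07 ± 0.28, adjusted p = 0.0247), but was at 0.83 and 0.99 without WT chow mouse 1 or 3 and had an adjusted p of 0.0506, 0.0696 and 0.0604 without KO SC-435 mouse 1, 2 or 4.

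Counts of clock genes changed with single mice. Of 19 tested 1 rose and 2 fell (median -0.0028), and without WT chow mouse 4 these counts were 6 and 4. The list had no higher member without WT chow mouse 2 or 3 or KO SC-435 mouse 3 or 4, and 2 without KO SC-435 mouse 1; it had 1 lower member without WT chow mouse 1 or 2 or KO SC-435 mouse 3 or 4. Cry1, a repressor of the clock, had 25.0, 20.8, 12.8 and 11.2 CPM in WT chow mice and 6.03, 4.84, 4.12 and 3.61 CPM in KO SC-435 mice (-1.89 ± 0.26, adjusted p = 0.00114). Per3, of the Period family, had 3.91, 3.78, 8.43 and 20.6 and 23.6, 34.3, 27.5 and 30.5 CPM (1.67 ± 0.45, adjusted p = 0.0283; 2.44 without WT chow mouse 4, and adjusted p = 0.0583 to 0.0793 without WT chow mouse 2 or 3 or KO SC-435 mouse 2, 3 or 4). Nfil3, a clock-controlled repressor, overlapped at 55.3, 62.9, 23.0 and 20.0 and 16.5, 17.0, 16.2 and 22.8 CPM (-1.14 ± 0.33, adjusted p = 0.0388), and leaving out any mouse but WT chow mouse 3 or 4 ended its call (adjusted p = 0.0545 to 0.106). For Cry1, Per3 and Nfil3 alike, WT chow mice 1 and 2 stood on one side of WT chow mice 3 and 4. The time of day of collection is not in the labels.

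The 8 female mice that this comparison did not use, KO on chow and WT on SC-435, differ in genotype in the same direction and in diet in the opposite direction. Adipocyte counts varied among them as well (Cfd from 4 to 665 in KO chow and from 0 to 2379 in WT SC-435 mice), and their part in these values was not tested. In them 1148 genes (7.06%) were higher and 373 (2.3%) lower in KO chow of 16250 tested. Of the 431 genes higher in KO SC-435 mice, 412 were tested there: 121 were also higher in KO chow (28.1% of the 431 and 10.5% of the 1148), 90 were lower in KO chow (20.9% and 24.1% of the 373), and 201 were not called. Of the 193 genes lower in KO SC-435 mice, 189 were tested: 30 were lower in KO chow as well (15.5% and 8.04%), 28 were higher (14.5% and 2.44%), and 131 were not called. Genes called in both sets are described next by the factor, genotype or diet, that the direction of their change shares between the sets.

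**Figure D4:**
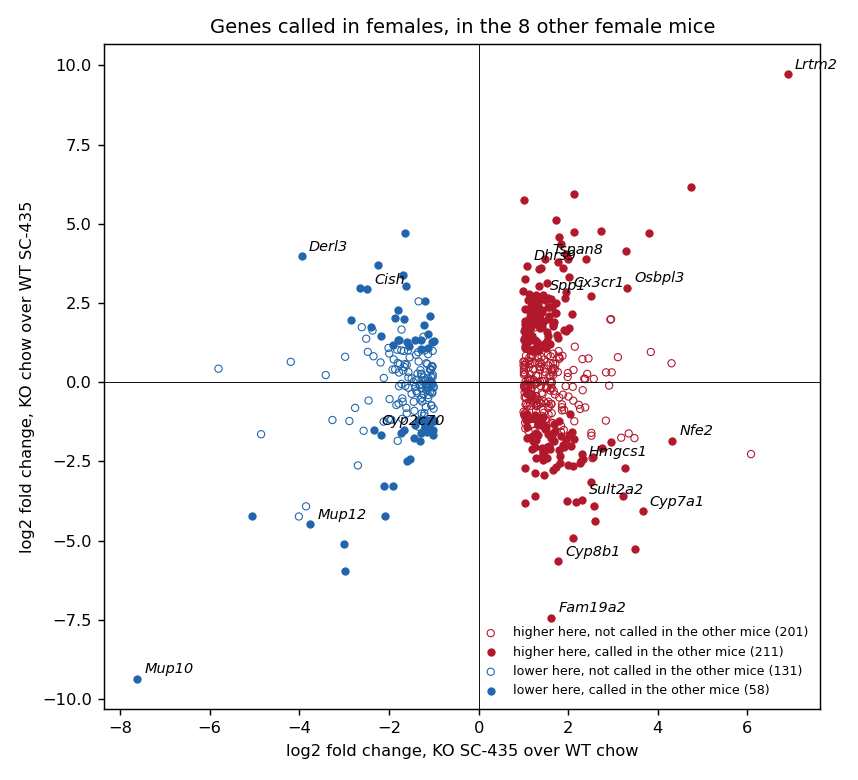
Log2 fold change of KO chow over WT SC-435 (vertical axis) against that of KO SC-435 over WT chow (horizontal axis) in female mice, for the genes called in the latter and tested in both. The axes share no mice. Filled points were called in both comparisons and open points in KO SC-435 against WT chow only. Genes such as Lrtm2 (6.90 and 9.72) lie in the quadrant where genotype agrees, and genes such as Cyp7a1 (3.66 and -4.06) in that where diet agrees.

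The class that was higher in knockouts in both sets was led by Lrtm2, Syt14 and Cacna2d4. Lrtm2 was 9.72 higher on the log2 scale in KO chow than in WT SC-435 mice (adjusted p = 0.00017), with group means of 31.9 and 0.0360 CPM. Syt14, a synaptotagmin relative, had 68 counts over the 4 KO SC-435 mice and 2 over the 4 WT chow mice, both from WT chow mouse 1, a ratio of 33.7 after scaling (95% exact interval for counting error 8.99 to 284), and was 6.15 higher in KO chow than in WT SC-435 mice (adjusted p = 0.00107). Osbpl3 (2.98), Spp1 (2.75), Tspan8 (3.87), Muc1 (2.23), Epcam (2.39), Cx3cr1 (2.84), Il1b (2.05), Cx3cl1 (2.10), Tgfb2 (2.25), Plat (2.49), Mmp13 (3.90), Mmp12 (5.75), Orm2 (1.01), Orm3 (1.95), Scd2 (1.0), Cyp2c55 (1.40) and Dhrs9 (3.68) were also called higher in KO chow, as log2 differences from WT SC-435 mice. Col4a3 and Col4a4, which rose in KO SC-435 mice, were not called in KO chow (-0.89 and 0.022). Among falls, Mup12 (-4.48), Mup10 (-9.36), Mup7 (-4.24), Mup14 (-5.12) and G0s2 (-1.49) were lower in both sets. The calls of Mup10 and Mup7 in KO SC-435 mice were lost without WT chow mouse 2, as given above.

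The levels of Spp1, Mmp12, Col1a1 and Cx3cr1 in KO SC-435 mice lay between those of WT chow and KO chow mice as a description of group means, which share no test here. Spp1 averaged 36.3 ± 13.04 CPM (SD, n = 4) in WT chow, 97.6 ± 17.2 in KO SC-435 and 188 ± 69.1 in KO chow mice. Mmp12 averaged 0.308 ± 0.0793, 0.621 ± 0.133 and 13.4 ± 10.5 CPM. Col1a1 averaged 13.7 ± 4.27, 25.3 ± 4.34 and 81.8 ± 37.3 CPM, and Cx3cr1 0.752 ± 0.247, 2.89 ± 0.711 and 5.17 ± 2.37 CPM. The summed cholangiocyte markers ran over 195 to 398 CPM in KO chow and 66.7 to 78.9 CPM in WT SC-435 mice, on either side of the KO SC-435 range given above. Ccl2, Adgre1, H2-Eb1 and H2-Aa, which were not called in KO SC-435 mice, were higher in KO chow than in WT SC-435 mice (log2 differences 2.21, 1.05, 2.02 and 1.81). By list, 17 of the innate immune receptors and 9 of the MHC class II genes were called higher in KO chow, where none was called in treated knockouts against normal liver.

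The class higher with SC-435 in both sets was led by Nfe2, Cyp7a1 and Nat8f5. Nfe2 was -1.84 in KO chow over WT SC-435 mice (adjusted p = 0.0338) and averaged 1.46 CPM in KO chow and 5.24 CPM in WT SC-435 mice, so that its level in KO SC-435 mice (24.7 CPM) stood above all 3 other groups. Cyp7a1 was -4.06 (adjusted p = 0.00405), with 58.9 CPM in KO chow and 997 CPM in WT SC-435 mice. Nat8f5, an N-acetyltransferase relative, went from 19 counts over the WT chow mice to 223 over the KO SC-435 mice (3.497 ± 0.44, adjusted p = 0.000764) and was -5.26 in KO chow over WT SC-435 mice. Of the 20 cholesterol biosynthesis enzymes, 19 were lower in KO chow than in WT SC-435 mice (median -1.99), with Hmgcs1 at -2.49, Msmo1 at -2.65, Lss at -1.79, Acat2 at -1.40 and Sc5d at -1.004. Cyp8b1 (-5.65), Sult2a2 (-3.71), Sult2a5 (-4.91), Hsd17b7 (-2.40), Rdh11 (-2.32), Cyp2a5 (-1.34), Usp50 (-2.71), Slc28a1 (-1.88), Pltp (-1.11), Gstm4 (-1.06) and Mt1 (-1.71) were lower in KO chow as well. In contrast Fasn, Acly, Acss2, Gsta1, Gstm3 and Abcc4, all higher in KO SC-435 mice, were not called in the other mice (-0.66, -0.14, -1.69, 0.95, 0.39 and -0.39). KO chow and WT SC-435 mice also differ in genotype, so the sizes given here are not those of diet alone. The study reported lower Cyp7a1 and particularly Cyp8b1 mRNA in female knockouts than in WT mice. The part of genotype in the -5.65 of Cyp8b1 was not tested.

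The genes lower in KO SC-435 mice and higher in KO chow were led by Derl3, Gm16731 and Bhlha15. Derl3 was 3.98 higher in KO chow than in WT SC-435 mice (adjusted p = 0.026). Gm16731, a transcript that overlaps Trim14 and Coro2a on the opposite strand, went from 0.764 to 4.02 CPM in WT chow to 0.117 to 0.636 CPM in KO SC-435 mice (-2.85 ± 0.54, adjusted p = 0.00569) and was 1.96 in KO chow. Bhlha15 was 2.98, Cish 2.94 and Hsd17b6 1.33. Cyp2c70 was lower in both sets, by -2.33 in KO SC-435 and -1.52 in KO chow.

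The same contrast in males, whose 8 mice were not used above, gave 26 genes higher (0.169%) and 6 lower (0.039%) of 15395 tested. Male WT chow mouse 1 stood apart from the other libraries, with a TMM factor of 0.639, 1.61% mitochondrial counts and a correlation of 0.917 with its group, and without it 289 genes (1.83%) were higher and 126 (0.798%) lower of 15797. Leaving out any of the other 7 male libraries gave 5 to 9 higher and 5 lower genes. Of the female calls, 15 higher genes (3.48% of 431 and 57.7% of the 26) and 4 lower genes (66.7% of the 6) were shared when all male libraries were used. Without male WT chow mouse 1, 107 higher genes were shared (24.8% and 37%) and 36 lower genes (18.7% and 28.6%), while 3 and 8 were called in opposite directions. Lrtm2 (5.70, adjusted p = 0.00193), Osbpl3 (4.38, 0.00427), Hmgcs1 (2.67, 0.00446), Abcc4 (2.06, 0.00193) and Slc28a1 (2.37, 0.0399) were called higher in males with all libraries. Without that mouse 16 of the 20 cholesterol enzymes rose in males (median 1.22), against 2 with it. In the same fit 3 lists that held falls in females held none in males: 5 lipid droplet genes rose (median 0.72), as did 3 of fatty acid oxidation (0.31) and 3 of the ER stress response (0.29), and these differences between the sexes were not tested by list. All 17 lipid droplet genes, Cfd and Cidea among them, were tested in this male fit, against 15 in females. Of the adipocyte markers 7 were tested in it, against 3 in females, and none was called (median 0.66). The part of adipocyte RNA in the male values was not tested.

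Genes changed by the knockout without drug were taken from male mice on chow, to follow them in treated females with no shared animal. In male KO chow against WT chow 145 genes (0.914%) were higher and 21 (0.132%) lower of 15862, and with any 1 mouse other than male WT chow mouse 1 left out there were 9 to 107 and 1 to 11. Of the 145, 126 were tested in the female comparison: 39 (31%) rose and 2 (1.59%) fell in treated females, and 42 lay within 0.5 of no difference. Over all genes tested in females 2.71% rose, 1.22% fell and 80.7% lay within 0.5. The median of the 126 was 0.77, against 2.78 in the males that chose the list. Of the 21, 5 fell and 2 rose (median -0.21). Without male WT chow mouse 1 the male list grew to 522 (3.18%) and 115 (0.702%) of 16390. In treated females 80 (17.4%) of the 460 tested members of the 522 rose, 13 (2.83%) fell and 191 lay within 0.5 (median 0.48 against 1.94 in males). Of 110 tested members of the 115, 9 (8.18%) fell and 11 (10%) rose (median 0.22). The male values chose these lists, so the male and female medians are set side by side as a description.

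A direct test of the sex difference found 19 of 16549 genes (0.115%) with an adjusted p under 0.05, and 783 of 16841 (4.65%) without male WT chow mouse 1. With any other library left out it found 5 to 32, the fewest without female KO SC-435 mouse 2 and the most without female WT chow mouse 4. The smallest adjusted p belonged to Slc22a26, an organic anion transporter of the Slc22 family, which was -0.49 in females (148 to 224 and 112 to 158 CPM) and 3.34 in males (female minus male -3.86 ± 0.41, adjusted p = 0.00111). Ppp1r3b fell by 1.10 in females and was 1.27 in males (-2.38 ± 0.29, adjusted p = 0.00257). Fam19a2, a secreted chemokine-like protein, rose in both, by 1.63 in females and 5.79 in males (-4.16 ± 0.49, adjusted p = 0.00257), and in females it went from 6.61, 4.28, 4.82 and 2.46 to 14.5, 15.8, 13.7 and 11.6 CPM. All 3 differences also passed without male WT chow mouse 1.

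**Figure D5:**
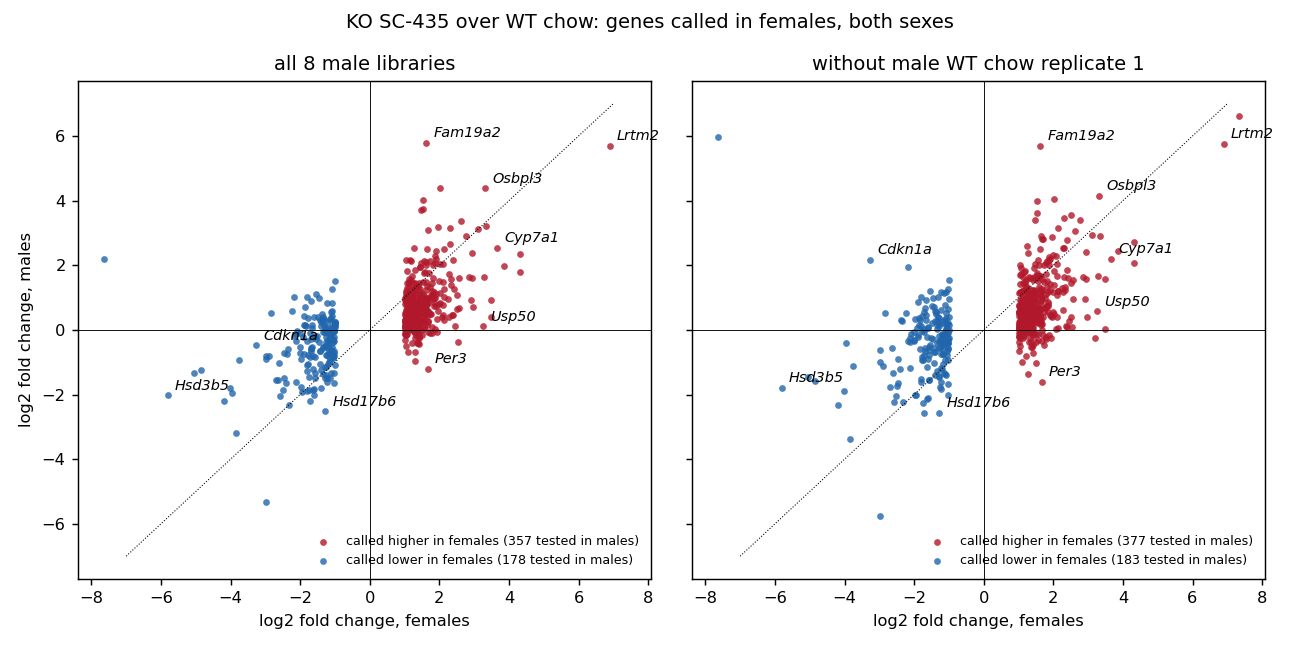
Log2 fold change of KO SC-435 over WT chow in males (vertical axis) against females (horizontal axis) for genes called in females, red where higher and blue where lower. The left panel uses all 8 male libraries and the right panel leaves out male WT chow mouse 1, and the dotted line marks equal values. Lrtm2 and Osbpl3 lie high in both sexes, and Hsd3b5 lies lowest of the labelled genes in females.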

How the data were processed

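Liver poly(A) RNA-seq of 32 mice was deposited as 1 gene table. Per the labels' processing notes the authors used HISAT2 2.0.5, featureCounts 1.5.0-p3, DESeq2 1.20.0 and GATK 4.1.1.0 on mm10, and the deposited raw read counts per gene were used here. The deposited FPKM values, the normalized signal columns of the authors' comparisons, and the authors' log2 fold changes and p-value columns were not used. Whether counting used strand is not given in the sources used here.

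Counts of 8 libraries were fitted with edgeR 4.0.16 in R 4.3.3 (TMM, filterByExpr with a minimum count of 10 and total of 15, quasi-likelihood F-test, Benjamini-Hochberg adjustment over all genes tested). Genes were called at an adjusted p under 0.05 and a log2 difference beyond 1. 54532 genes were in the table, 22412 of them without a read in any library. Scripts were tested on simulated data. DESeq2 1.42.0, other normalizations and filters, a replicate block and left-out libraries were alternatives. Groups came from the labels, and same-numbered mice of the 2 groups did not deviate together (correlations of -0.112 to 0.014), so replicate numbers were not taken as pairs.

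Genes were named by rule: Cyp2c70, the 10 largest rises and falls (protein-coding, averaging 50 counts or more, no overlap), in each gene list the up to 4 called members with the smallest adjusted p (all of 5 or fewer, or the 2 leading tested members where none was called), genes the study names, the 5 called genes with the highest mean level, the 3 largest rises and falls among genes also called in KO chow against WT SC-435, and the 3 smallest adjusted p between the sexes. The members and lists were chosen with earlier results of these data known, so list counts and medians carry no test. Some genes that the rule or the lists hold are counted but not reported by name here. Comparisons of KO SC-435 with WT chow in males and of female KO chow with WT SC-435 share no mouse with the main one. Promoter windows and motif letters were read from RefSeq (GRCm38.p6). Depth lets 3 counts be seen at 0.0778 CPM or less in these 8 libraries. Each ± after a log2 difference is an SE, taken as the size of the difference over the square root of its F statistic. The exact interval given for Syt14 covers counting error only. Figures were drawn with matplotlib 3.10.9 in Python 3.11.15.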

Additional observations from a re-analysis of the deposited data

Results flagged for a closer look

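Among 290 groups of 4 mice, 1 for each gene of the naming rule in each group, 16 (5.52%) held a mouse far from the other 3 by Dixon's criterion, 7 in KO SC-435 and 9 in WT chow mice, where chance flags about 1 in 20. In WT chow mouse 4, Lrtm2 (0.286 CPM) and Smad7 (36.4 CPM) were above the other 3 mice, and Krt19 (1.19 CPM) and Hyou1 (249 CPM) below them. In WT chow mouse 1, Syt14 (0.0525 CPM) and Ighm (4.93 CPM) were high and Mmp13 (0.0525 CPM) was low. Usp18 was low in WT chow mouse 2 (8.88 CPM), and Lilrb4a was high in WT chow mouse 3 (4.004 CPM). In KO SC-435 mouse 4, Acat2 (199 CPM), Orm3 (9.36 CPM), Col4a3 (3.57 CPM) and Col4a4 (1.57 CPM) were below the other 3 mice and Nfil3 (22.8 CPM) was above them. Msmo1 was low in KO SC-435 mouse 3 (734 CPM), and Hspa5 was high in KO SC-435 mouse 1 (720 CPM).

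For 6 named genes the difference between KO SC-435 and WT chow mice was itself different between the sexes (edgeR interaction test, Benjamini-Hochberg adjustment), given as female minus male log2 difference. It was -3.86 for Slc22a26 (adjusted p = 0.00111; 9.94e-05 without male WT chow mouse 1), -2.38 for Ppp1r3b (0.00257; 0.000596) and -4.16 for Fam19a2 (0.00257; 0.00115). It was -2.83 for Plin4 (0.0164; 0.00299), -1.68 for Hsph1 (0.0164; 0.000453) and 3.13 for Usp50 (0.0234; 0.00348). Plin4 and Hsph1 fell in females and lay at 1.02 and 0.32 in males, and Usp50 rose in females and lay at 0.11 in males.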

How the results depend on the processing

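Calls of KO SC-435 against WT chow in females numbered 431 higher and 193 lower, and under the alternatives in edgeR 423 and 193 with RLE size factors, 460 and 171 by library size alone, 482 and 235 without the filter on low counts, 274 and 136 among genes that averaged 50 counts or more, 434 and 194 with all 4 female groups in the fit, and 340 to 500 and 140 to 221 with any 1 library left out. DESeq2 gave 481 and 225, of which 415 and 187 were shared. Without WT chow mice 1 and 2, a setting chosen after seeing the data, there were 432 and 206. With the replicate number as a block they were 379 and 160. Same-numbered mice did not deviate together and no mouse-to-mouse pairing is given in the labels. Of the 101 called genes that the naming rule chose, 31 lost their call under at least 1 of the 15 other settings in edgeR and DESeq2, and no sign changed. The other 70 kept it in each of these 15 settings that tested them. The fit without WT chow mice 1 and 2 is not among the 15, and in it 20 of the 101 lost their call. Cyp3a44, Bhlha15, Epcam, Muc1, Plat and Mmp13 were lost there though they belong to the 70. Genes that averaged under 50 counts, such as Syt14 and Cacna2d4, were not tested with that minimum, which was not counted as a loss. Fitting all 4 female groups ended the calls of Mmp12, Mup10, Per3, Sult2a7, Cyp4a12a, Cyp4a12b, Cidec, Pfkfb3, Mup11 and Cyp8b1, and DESeq2 those of Mup10, Mup7 and Mt1.

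KO chow against WT SC-435 in females gave 751 higher genes with that minimum, 849 to 1475 higher and 286 to 541 lower with 1 library left out, and 1055 and 397 with the block. Scaling by library size alone moved its median log2 difference from -0.011 to 0.17 and gave 1579 and 284, with the share of calls that were higher at 84.8% against 75.5%.

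The male counts changed with the setting, and the cause was not tested. KO SC-435 against WT chow gave 5 to 289 higher and 5 to 126 lower genes with 1 library left out, 0 and 0 with the block (edgeR, where 1269 genes had an unadjusted p under 0.05 without the block), 94 and 21 with all 4 male groups in the fit and 166 and 72 by DESeq2. KO chow against WT chow in males gave 9 to 522 and 1 to 115 with 1 library left out, 15 and 2 with the block, 234 and 39 without the filter, 89 and 12 with that minimum, 794 and 160 with all 4 groups, 788 and 179 by DESeq2, and 6 lower by library size alone. Its median log2 difference moved from 0.039 to 0.29 by library size alone. Genes different between the sexes numbered 30 by library size alone, 36 with that minimum, 5 with the block, 214 by DESeq2 and 5 to 783 with 1 library left out.

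The 4 mice a group limit the precision of every value, and genes under the count filter were not testable at this depth.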
